A study of Mus musculus with 4 samples.

Results

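Solute carriers are the largest group of membrane transporter genes, and their expression was described here in mouse Th2 cells with and without Menin. Members were taken by name: every symbol that begins with Slc and a family number, except the glucose transporter genes Slc2a1 and Slc2a3 and the lactate transporter genes Slc16a1 and Slc16a3. Of 353 such symbols, 160 from 40 numbered families had a mean of at least 1 FPKM over the 4 libraries and were compared, among 10973 genes of any kind that met this minimum. FPKM counts sequenced fragments per length of transcript and per depth of library. The rule used only the mean level, but this mean takes in the compared groups. A gene could thus pass through the libraries in which it was high, in either direction. Slc15a2 and Slc24a3 were under 1 FPKM in both libraries with Menin and passed through those without it. Slc5a3 (mean 1.04 FPKM) lay just inside the minimum and Slc6a19 (0.967 FPKM) just outside.

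The study asked what Menin, the product of Men1 and a component of Trithorax group chromatin complexes, does in Th2 cells, the helper T cells that make IL-4, IL-5 and IL-13. CD4 T cells from spleens of C57BL/6 mice, wild type (WT) or Menin KO, were grown under Th2 conditions for 5 days (IL-2, 15 ng/ml, plus IL-4, 10 ng/ml) and measured then (WT 5-day and KO 5-day). The other cultures, labelled as 3 weeks (WT 3-week and KO 3-week), had the same 5 days, then 2 days without added cytokine, then 5 days on bound antibody to the T cell receptor, with IL-2 present and IL-4 blocked by antibody. Each of the 4 groups is 1 library, so no difference has a replicate error, no p-value is given, and how far cultures or mice differ is not known; age, sex, the way Menin was deleted and any time between the listed steps are not stated in the sources.

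Solute carriers move nutrients, ions, metals and metabolites across membranes, as uniporters, as cotransporters driven by an ion gradient, or as exchangers. An activated T cell takes up more amino acids, folate and nucleosides for growth, and among the transporters known for this are the CD98 complex (heavy chain Slc3a2 with light chains such as Slc7a5), the glutamine carriers Slc1a5 and Slc38a1, and the cystine importer Slc7a11. Other members sit in inner membranes: the SLC25 family carries metabolites into and out of mitochondria, the SLC35 family brings nucleotide sugars into the Golgi apparatus and endoplasmic reticulum, and members such as Slc17a5 and Slc36a1 export products of digestion from lysosomes.

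After 5 days Men1 was at 32.8 FPKM in WT and 10.3 in KO, and in the longer culture at 25.4 and 5.88, lower in both libraries labelled KO. Depth was not stated. Read from the steps between low values, it was about 20.7 to 23.6 M reads per library, and the counting intervals below rest on this estimate and cover counting error only. The 7 T cell markers were present in every library, with Cd4 between 147 and 307 FPKM and Cd3e between 203 and 318 FPKM. At 3 weeks 1 of the 7 was 2-fold higher in KO (Cd3g, 389 and 1028 FPKM) and 1 lower (Gata3, 93.8 and 45.9 FPKM). Of the listed markers of other cells, those past 2 FPKM in some library were Hba-a1 of red cells (8.75 FPKM in WT 5-day), Cd8b1 (2.04 to 5.16 FPKM), and Itgam and Cd14 in KO 3-week. The 6 macrophage and dendritic cell markers summed to 0.235 FPKM in WT 3-week and 6.82 in KO 3-week, nearly all from Itgam and Cd14, while Csf1r was listed at 0 in both and Lyz2 at 0 in KO 3-week. The 3 NK cell markers summed to 0.0174 and 2.10 FPKM in the same libraries. At 5 days the sums were 0.354 (WT) and 1.11 FPKM (KO) for the macrophage and dendritic cell markers and 0.119 and 1.75 FPKM for the NK cell markers.

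The 160 members together held 0.624% (WT) and 0.597% (KO) of all FPKM at 5 days and 0.633% and 0.588% at 3 weeks, so the family's summed share differed little among the libraries. Mitochondrial carriers led by level. Slc25a5, an ADP/ATP carrier of the inner mitochondrial membrane, stood at 467, 374, 385 and 258 FPKM in WT then KO at 5 days and WT then KO at 3 weeks, an order kept for every gene given with 4 values. Its relative Slc25a4 stood at 200, 175, 235 and 153 FPKM; the coding sequences of the pair are alike, so reads could be split between them, and each single value is uncertain. After the phosphate carrier Slc25a3 (196, 173, 191 and 174 FPKM) came Slc9a3r1 (126, 155, 135 and 166 FPKM), which carries the prefix but encodes a scaffold protein that binds transporters and is no transporter itself. It is 1 of 4 members classed as no transporters, with Slc2a4rg-ps, Slc4a1ap and Slc7a6os.

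At 5 days the solute carriers differed little between the genotypes, with a few members clearly higher in KO and none lower by as much as 2-fold. A gene was counted as 2-fold apart where log2((KO + 1)/(WT + 1)) was at least 1 in size, a scale that shrinks the differences of genes with low FPKM. By this rule 5 of 160 members were higher, 3.13%, where 2.77% of all compared genes were, and 0 of 160 were lower, where 0.82% of all were. Both shares lie near those of all genes. The member median was 0.05 (all genes -0.02), 94 of 160 lay above 0 (58.8%, against 46.1% of all genes), and 143 lay within 0.5 of 0.

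The 5 members higher at 5 days carry unlike substrates. Slc15a2, which encodes the proton-coupled peptide transporter PEPT2 (chromosome 16, 36750177 to 36784962, minus strand, GRCm38), stood at 0.591, 4.78, 0.255 and 3.79 FPKM. Both KO libraries lay far above both WT libraries, and the KO to WT ratio was 8.08 at 5 days (counting interval 4.98 to 14.5) and 14.8 at 3 weeks (7.70 to 37.2). Slc26a11, a sulfate and chloride transporter gene (chromosome 11, 119355557 to 119381079, plus strand), stood at 2.58, 10.5, 1.47 and 15.2 FPKM. Here too each KO library lay above each WT library. The cultures of a genotype are not replicates of it, and the share of all genes parted in this way was not counted. The ratio was 4.07 (3.37 to 4.95) at 5 days and 10.3 (8.21 to 12.9) at 3 weeks, with the highest log2 ratio of any member at 3 weeks, 2.71.

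Slc41a2, of a family of magnesium transporters (chromosome 10, 83230848 to 83337882, minus strand), stood at 1.38, 5.27, 1.82 and 7.37 FPKM, with ratios of 3.81 (3.14 to 4.66) and 4.06 (3.46 to 4.78). Slc52a3, a riboflavin transporter gene, stood at 4.36, 14.1, 9.83 and 20.8 FPKM. Both KO libraries were above both WT libraries, with ratios of 3.23 (2.75 to 3.79) and 2.12 (1.91 to 2.37), and WT itself was higher in the longer culture. Slc37a2, a sugar phosphate exchanger gene of the endoplasmic reticulum, stood at 2.62, 6.97, 8.72 and 22.3 FPKM, so that culture time and genotype each came with more RNA. These are bulk RNA values, in which more cells that express a gene and more RNA per cell cannot be told apart. A further member missed the 2-fold rule at 5 days by less than rounding: Slc31a2, encoding the copper transport protein CTR2 of endosomes and lysosomes, stood at 3.98, 8.94, 7.18 and 23.6 FPKM. With a pseudocount of 0.1 FPKM in place of 1 it passed, as did the low genes Slc24a3 and Slc7a8, which made 8 higher (4.55% of all genes) and 0 lower (1.3%).

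On the lower side at 5 days the furthest members were nutrient importers, each short of 2-fold. Slc7a5, the light chain of CD98 that exchanges large neutral amino acids, was at 52.8 FPKM in WT against 28.9 in KO, a log2 ratio of -0.85 (54.7% of the WT level, 51.9% to 57.8%). Slc19a1, the reduced folate carrier, stood at 9.09 and 4.61 FPKM, also at -0.85 (50.7% of WT, 42.8% to 59.7%). Slc7a1, the arginine and lysine importer CAT-1, stood at 14.5 and 8.57 FPKM, at -0.70. Among members with at least 5 FPKM in either library, the next were Slc25a12 at -0.47, Slc35a4 at -0.46, Slc29a1 at -0.43 and Slc25a13 at -0.41. For Slc35d1, a nucleotide sugar transporter gene, the log2 ratio was 0.60 (11.8 and 18.4 FPKM), the next highest after Slc27a1 among members with at least 5 FPKM.

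**Figure D1:**
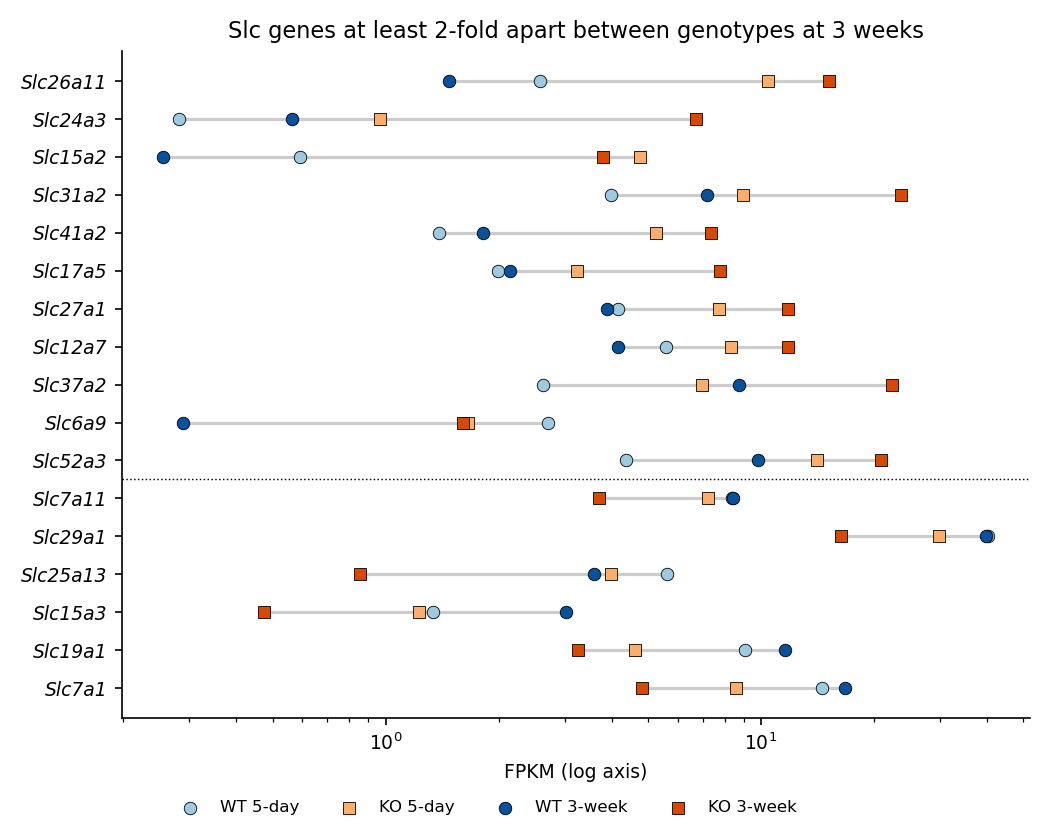
FPKM (log axis) of the 17 members at least 2-fold apart between genotypes at 3 weeks, 1 point per library, circles for WT and squares for KO, light for 5-day and dark for 3-week. Above the dotted line are the 11 members higher in KO 3-week, from Slc26a11 (1.47 and 15.2 FPKM at 3 weeks) to Slc52a3, and below it the 6 lower ones, from Slc7a11 to Slc7a1 (16.8 and 4.82 FPKM). Slc6a9 is the one among the higher members whose WT 5-day value, 2.71 FPKM, is the highest of the 4.

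In the longer culture more members stood apart, and in both directions. On the log2 scale given above, which shrinks the differences of low genes, Slc26a11, Slc24a3 and Slc15a2 were highest and Slc7a1, Slc19a1 and Slc15a3 lowest. The members on each side carry unlike substrates. By the 2-fold rule 11 of 160 members were higher in KO, 6.88%, where 7.97% of all compared genes were. Lower were 6 of 160, 3.75%, where 8.19% of all were. The family thus had no larger share of such genes than the transcriptome in either direction. The median log2 ratio of the members was 0.05, with quartiles of -0.35 and 0.39, against a median of -0.08 over all genes, and 85 of 160 lay above 0 (53.1%, against 43.9%). Upper-quartile scaling moved the median of all genes by 0.12, and the member split was then 15 higher and 5 lower (75% higher) in place of 11 and 6 (64.7% higher). Over all genes the share higher moved likewise, from 49.3% to 60.5%.

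Besides the 5 genes already higher at 5 days, 6 members passed the rule on the higher side at 3 weeks. Slc24a3, a sodium, potassium and calcium exchanger gene (chromosome 2, 145167754 to 145642166, plus strand), stood at 0.282, 0.968, 0.564 and 6.70 FPKM. Only KO 3-week was well above 1 FPKM, and the ratio at 3 weeks was 11.9 (counting interval 8.46 to 17.3). Slc31a2 had a ratio of 3.29 (2.65 to 4.11). Slc17a5, encoding sialin, which exports sialic acid from lysosomes, stood at 1.99, 3.24, 2.14 and 7.77 FPKM, with a ratio of 3.63 (3.02 to 4.39). Slc27a1, a fatty acid transport protein gene, stood at 4.15, 7.75, 3.90 and 11.8 FPKM, with a ratio of 3.03 (2.60 to 3.53). In both of these genes each KO library was above each WT library.

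Slc12a7, encoding the potassium and chloride cotransporter KCC4, stood at 5.57, 8.34, 4.15 and 11.8 FPKM, with a ratio of 2.84 (2.56 to 3.16). Slc6a9, the glycine transporter GlyT1, stood at 2.71, 1.66, 0.289 and 1.61 FPKM. Here the KO values of the 2 times were alike and the WT value was low in the longer culture, so the ratio of 5.57 (3.33 to 10.5) rests on the low WT 3-week value. Slc6a9 shares 1429 bases of exon with Ccdc24 on the opposite strand, and no source used here says whether reads were counted by strand; Ccdc24 itself was below 0.1 FPKM in all 4 libraries. The sums of the macrophage and dendritic cell markers and of the NK cell markers given above were also higher in KO at both times. Single faint markers of macrophages and dendritic cells went the other way, Csf1r and Flt3 at 5 days and Lyz2 at 3 weeks. Also higher in KO at both times were the sums of CD8 T cell markers (4.38, 5.70, 2.04 and 3.77 FPKM) and B cell markers (1.62, 2.72, 0.155 and 0.278 FPKM). Platelet and fibroblast sums were lower in KO at both times, and red cell and granulocyte sums were lower at 5 days only. The part of any of these cells in the genotype differences of either time was not tested. Slc11a1, a metal transporter gene of macrophage phagosomes, was at 0.0627 FPKM in KO 5-day and 0.0439 in KO 3-week. It was listed at 0 in both WT libraries.

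The lower members were importers at the cell surface and a pair of organelle carriers. Slc7a1 (chromosome 5, 148327410 to 148399904, minus strand) stood at 14.5, 8.57, 16.8 and 4.82 FPKM, and at 3 weeks KO held 28.7% of the WT level (26.4% to 31.1%), the lowest log2 ratio of any member at -1.61. Slc19a1 stood at 9.09, 4.61, 11.6 and 3.26 FPKM, 28.1% of WT (23.4% to 33.7%). For both, the KO libraries lay below both WT libraries. Slc29a1, encoding the equilibrative nucleoside transporter ENT1 (chromosome 17, 45585200 to 45599606, minus strand), stood at 40.4, 29.7, 39.8 and 16.3 FPKM, 41% of WT (37.4% to 45%). It overlaps the antisense gene Gm17080 over 275 bases of exon.

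Slc7a11, the cystine and glutamate exchanger xCT, stood at 8.36, 7.25, 8.45 and 3.71 FPKM. The first 3 libraries were close and KO 3-week was 43.9% of WT (39.3% to 49.0%), with a log2 ratio of -1.0 that was short of 2-fold under both other scalings. Slc25a13, the mitochondrial aspartate and glutamate carrier citrin, stood at 5.63, 3.99, 3.58 and 0.855 FPKM, 23.8% of WT at 3 weeks (17.3% to 32%). Slc15a3, a peptide and histidine transporter gene of lysosomes, stood at 1.34, 1.23, 3.03 and 0.474 FPKM, 15.6% of WT (9.55% to 24.6%), so it was near equal at 5 days and apart in the longer culture. It shares 1541 bases of exon with Tmem132a on the opposite strand, a gene at 0.295 and 0.0702 FPKM in the longer WT and KO cultures. With a pseudocount of 0.1 FPKM the lower members numbered 14 (10.4% of all genes) and the higher 14 (9.88%); Slc7a5, Slc7a6, Slc19a2, Slc5a6, Slc16a10, Slc25a10, Slc25a25 and Slc25a47 joined the lower side.

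Stretches of 250 bases upstream of the start are shown for members from both sides, because the E-box CACGTG, bound by Myc and its relatives, and the amino acid response element TGATGNAA, bound by Atf4 with partner factors, are known from transporter promoters. Myc stood at 38.4, 20.3, 75.8 and 14.7 FPKM. Both motifs were searched on both strands in the RefSeq promoter table (GRCm38.p6). CACGTG was in 6.04% and TGATGNAA in 3.53% of 27025 promoters. The table held 122 of the 160 members, too few for a share over the family, including 9 of the 11 members higher at 3 weeks and 5 of the 6 lower. CACGTG was in 0 of those 9 and 1 of those 5 (Slc25a13), and TGATGNAA in 0 of 9 and 1 of 5 (Slc7a11, with 2 matches that do not overlap). Sequences run 5′ to 3′ on the transcribed strand and end at the base before the RefSeq start, which can differ from the GENCODE gene span. Capitals mark matches, at -66 to -59 and -47 to -40 from the start in Slc7a11 and at -125 to -120 in Slc25a13; a match is a description of letters and not a shown binding site.
Slc7a11, lower at 3 weeks, chr3:50443614-50443863, minus strand: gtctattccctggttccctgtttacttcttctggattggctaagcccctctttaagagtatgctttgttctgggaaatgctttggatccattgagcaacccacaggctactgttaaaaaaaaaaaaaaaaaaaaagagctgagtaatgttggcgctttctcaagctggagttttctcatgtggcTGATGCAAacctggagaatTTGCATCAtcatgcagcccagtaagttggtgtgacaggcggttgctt
Slc25a13, lower at 3 weeks, chr6:6217174-6217423, minus strand: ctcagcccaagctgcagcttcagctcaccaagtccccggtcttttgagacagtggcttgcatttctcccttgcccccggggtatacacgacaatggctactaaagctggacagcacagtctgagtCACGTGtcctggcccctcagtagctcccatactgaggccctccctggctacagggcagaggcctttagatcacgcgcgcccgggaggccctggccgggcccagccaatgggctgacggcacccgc
Slc7a1, lower at 3 weeks, chr5:148399905-148400154, minus strand: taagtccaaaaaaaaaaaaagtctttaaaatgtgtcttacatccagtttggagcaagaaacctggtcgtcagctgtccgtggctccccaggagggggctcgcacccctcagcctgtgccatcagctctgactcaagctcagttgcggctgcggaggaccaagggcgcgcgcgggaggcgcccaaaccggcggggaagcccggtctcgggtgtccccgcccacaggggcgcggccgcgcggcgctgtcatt
Slc15a2, higher at both times, chr16:36784963-36785212, minus strand: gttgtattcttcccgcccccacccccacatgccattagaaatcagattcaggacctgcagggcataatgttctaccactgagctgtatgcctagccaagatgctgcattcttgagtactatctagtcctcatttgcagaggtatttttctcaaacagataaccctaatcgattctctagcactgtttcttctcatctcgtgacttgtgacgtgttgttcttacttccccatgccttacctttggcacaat
Slc41a2, higher at both times, chr10:83337818-83338067, minus strand: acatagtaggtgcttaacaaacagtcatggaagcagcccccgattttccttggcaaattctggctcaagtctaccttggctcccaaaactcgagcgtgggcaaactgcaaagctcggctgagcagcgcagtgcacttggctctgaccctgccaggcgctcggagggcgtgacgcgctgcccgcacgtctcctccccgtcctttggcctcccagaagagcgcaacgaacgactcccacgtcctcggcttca

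**Figure D2:**
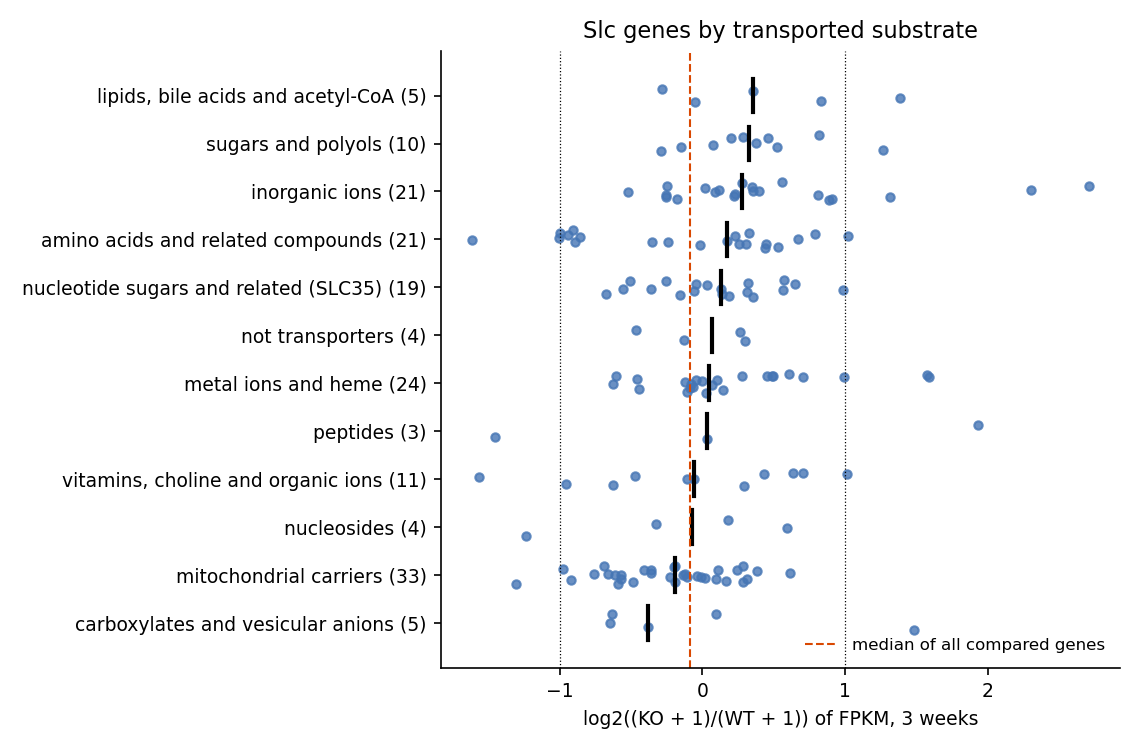
Log2((KO + 1)/(WT + 1)) of FPKM at 3 weeks for each of the 160 members, 1 point per gene, by the kind of substrate its family carries (number of genes in brackets), with the class median as a bar, the median of all compared genes (-0.08) as a dashed line and the 2-fold limits dotted. The 4 members that are no transporters form a class of their own. Medians run from -0.38 in the 5 carboxylate and vesicular anion carriers to 0.36 in the 5 lipid carriers. Those of the vitamin class (-0.06) and the nucleoside class (-0.07) lie above 0 under another scaling.

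The members were next grouped by what their families carry. Of 21 carriers of amino acids and related compounds, 1 was higher (Slc6a9) and 2 lower (Slc7a1, Slc7a11) by the rule at 3 weeks (7.97% and 8.19% of all genes), 11 lay above 0, and the median was 0.17. The summed level of the class was 440, 403, 406 and 360 FPKM. Importers stood on both sides. Slc7a6, another CD98 light chain, stood at 10.9, 8.34, 12.2 and 5.90 FPKM (log2 ratio at 3 weeks -0.94), and Slc38a1, a sodium-driven glutamine importer, at 41.5, 34.7, 43 and 22.4 FPKM (-0.91). Slc16a10, which carries aromatic amino acids, stood at 4.25, 3.86, 2.61 and 0.994 FPKM (-0.86).

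Other importers were nearer 0 or above it. Slc1a5, encoding ASCT2, stood at 72.2, 65.6, 66.0 and 55.6 FPKM (log2 ratio at 3 weeks -0.24), and Slc38a2 at 35.7, 40.6, 25.7 and 30.9 FPKM (0.26). Slc1a4, a carrier of small neutral amino acids, stood at 2.09, 1.49, 0.782 and 1.24 FPKM (0.33), and Slc6a6, the taurine importer, at 11.6, 15.2, 16.1 and 18.3 FPKM (0.17). Of the SLC43 family, Slc43a2 stood at 10.5, 12, 11.5 and 17 FPKM (0.53), while Slc43a1 was below the minimum, at 0.364, 0.177 and 0.151 FPKM and listed at 0 in KO 3-week. Slc43a3, placed here by family but known as a nucleobase transporter, stood at 38.5, 41.7, 37.2 and 19.6 FPKM (-0.89), with KO 3-week alone apart from the rest.

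The log2 ratio at 3 weeks was above 0 in 3 amino acid carriers of lysosomes. Slc38a9, which senses arginine in the lysosome for the growth kinase complex mTORC1, stood at 2.21, 2.52, 1.42 and 3.18 FPKM (log2 ratio at 3 weeks 0.79), Slc36a1, a proton-coupled exporter, at 12.3, 14.5, 14.4 and 23.5 FPKM (0.67), and Slc38a7, a glutamine exporter, at 4.78, 4.75, 5.21 and 6.69 FPKM (0.31). A list of 16 lysosomal or endosomal members and another of 25 nutrient importers at the cell surface were drawn up after these values were seen, so their counts describe and support nothing. At 3 weeks 11 of the 15 compared lysosomal or endosomal members lay above 0 (median 0.45, 2 higher and 1 lower by the rule), with summed levels of 119, 136, 115 and 166 FPKM. Of 23 compared surface importers 14 lay below 0 (median -0.35, 2 higher and 4 lower). Over all genes 43.9% lay above 0 at 3 weeks, 7.97% were higher and 8.19% lower by the rule.

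**Figure D3:**
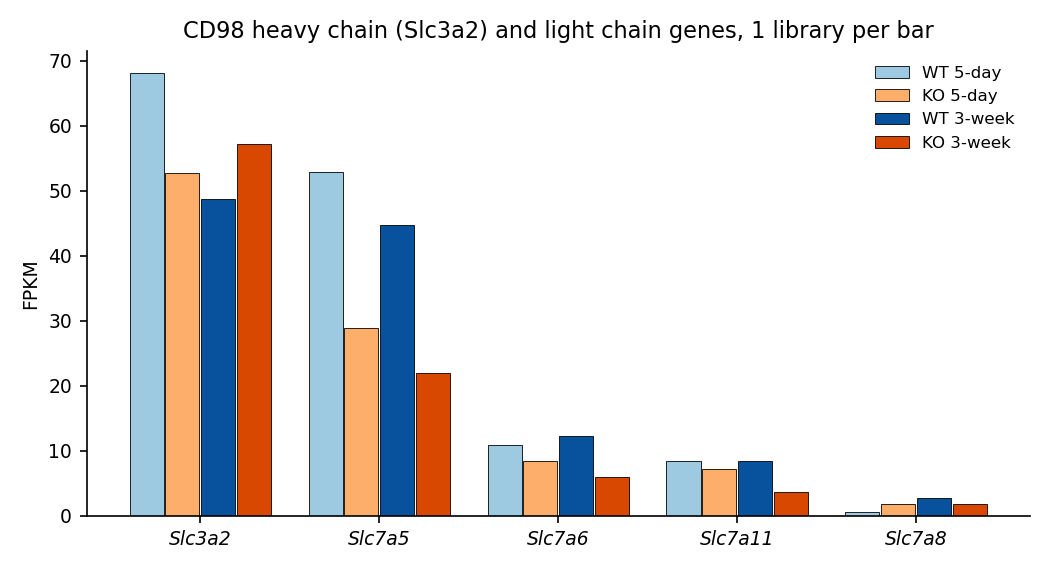
FPKM of the CD98 heavy chain gene Slc3a2 and of 4 light chain genes, 1 bar per library, on an axis that starts at 0. Slc3a2 was highest in WT 5-day (68.1 FPKM), whereas Slc7a5, Slc7a6 and Slc7a11 were each lowest in KO 3-week (21.9, 5.90 and 3.71 FPKM).

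Within the CD98 complex, the heavy chain gene and the light chain genes Slc7a5, Slc7a6 and Slc7a11 were all lower in KO at 5 days. At 3 weeks the heavy chain gene was higher in KO and these light chain genes were lower. The low light chain gene Slc7a8 was higher in KO at 5 days (0.574 and 1.81 FPKM, log2 ratio 0.84). At 3 weeks Slc7a8 was lower (-0.35). Slc7a7, under the minimum of 1 FPKM, was lower in KO at 5 days (-0.16) and slightly higher at 3 weeks (0.06). Slc3a2, whose protein brings each light chain to the cell surface, stood at 68.1, 52.8, 48.7 and 57.2 FPKM, lower in KO at 5 days (log2 ratio -0.36) and higher at 3 weeks (0.23). Slc7a5 stood at 52.8, 28.9, 44.7 and 21.9 FPKM, with KO at 49.0% of WT at 3 weeks (46.2% to 52%), a log2 ratio just short of 2-fold. Since FPKM is scaled to length, the sum of the light chain genes can be set against the heavy chain gene: Slc7a5, Slc7a6, Slc7a7, Slc7a8 and Slc7a11 summed to 73.1, 46.6, 68.2 and 33.6 FPKM, which is 1.07, 0.883, 1.40 and 0.587 times Slc3a2. The ratio was lower in KO than in WT at both times and lowest in KO 3-week. At 5 days this came through Slc7a5 (0.775 times Slc3a2 in WT and 0.548 in KO), while Slc7a6 was near equal (0.160 and 0.158) and Slc7a11 was 0.123 and 0.137. The light chain list was drawn up after the values were seen, and the ratio compares RNA, not protein.

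Vitamin and nucleoside carriers held members of both directions. Beside Slc19a1, the thiamine transporter gene Slc19a2 stood at 10.8, 9.13, 13.3 and 6.34 FPKM (log2 ratio at 3 weeks -0.96) and the biotin and pantothenate importer gene Slc5a6 at 1.62, 1.5, 1.93 and 0.900 FPKM (-0.63). The riboflavin transporter genes were unlike each other: Slc52a2 stood at 5.08, 6.2, 10.0 and 6.97 FPKM (-0.47), where Slc52a3 was higher in KO. Slc44a2, of the choline transporter-like family, stood at 56.9, 49.8, 44.7 and 55.1 FPKM (0.30). Of 11 members in the vitamin class 1 was higher and 1 lower by the rule at 3 weeks (7.97% and 8.19% of all genes). Among 4 nucleoside carriers Slc29a1 was lower, and Slc28a2, a concentrative purine nucleoside importer, stood at 7.91, 7.75, 8.74 and 13.7 FPKM (0.59), with KO 3-week the highest.

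Mitochondrial carriers made up the largest class, with 33 members. At 5 days 19 of them lay above 0 (46.1% of all genes did) and the median was 0.03. At 3 weeks 23 lay below 0, where 43.9% of all genes lay above 0, and the median was -0.19 (-0.08 over all genes). By the rule 1 was lower at 3 weeks (Slc25a13), where 8.19% of all genes were, and 0 were higher, where 7.97% were. The median was -0.088 with median-of-ratios and -0.058 with upper-quartile scaling. The summed level was 1270, 1135, 1252 and 986 FPKM, most of it from Slc25a5, Slc25a4 and Slc25a3, and KO was 0.787 times WT at 3 weeks. Slc25a12, the other aspartate and glutamate carrier, stood at 35.6, 25.3, 37.5 and 23.4 FPKM (log2 ratio at 3 weeks -0.66). The dicarboxylate carrier gene Slc25a10 stood at 11, 9.81, 10.5 and 4.83 FPKM (-0.98), and Slc25a32, a mitochondrial folate carrier gene, at 3.40, 3.51, 5.82 and 3.23 FPKM (-0.69).

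Other mitochondrial carriers did not follow. Slc25a45 stood at 22.1, 24.3, 17.4 and 27.2 FPKM (log2 ratio at 3 weeks 0.62, the highest of the class). Slc25a24, a carrier of ATP-Mg and phosphate, stood at 42.9, 43.1, 38.4 and 43.1 FPKM (0.16), while its relative Slc25a25 stood at 5.31, 4.13, 4.23 and 1.76 FPKM (-0.92). For Slc25a20, the carnitine carrier of fatty acid import, the values were 14.5, 18.5, 22.4 and 21.9 FPKM, and the sign at 3 weeks (-0.04) turned under the other scalings, as it did for Slc25a3 (-0.14) under upper-quartile scaling.

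Of 21 inorganic ion carriers 16 lay above 0 at 5 days (median 0.22, where 46.1% of all genes lay above 0) and 16 at 3 weeks (median 0.28, where 43.9% of all did), with no test of the class. At 3 weeks 3 were higher and 0 lower by the rule (7.97% and 8.19% of all genes). Their summed level was 168, 197, 166 and 256 FPKM, 1.54 times WT at 3 weeks. Slc20a1, the phosphate importer PiT-1, stood at 29.9, 35, 40.6 and 72.0 FPKM (log2 ratio at 3 weeks 0.81). The sodium, potassium and chloride importer gene Slc12a2 stood at 3.46, 2.90, 4.49 and 2.83 FPKM (-0.52).

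Metal carriers divided evenly. Of 24 members 13 lay above 0 at 3 weeks (median 0.05, where 43.9% of all genes lay above 0). By the rule 2 were higher (Slc41a2 and Slc31a2) and 0 lower, where 7.97% and 8.19% of all genes were. The copper genes differed: Slc31a1, the copper importer CTR1, stood at 6.59, 5.55, 6.86 and 4.72 FPKM (log2 ratio at 3 weeks -0.46), against 1.59 for Slc31a2. Among zinc carriers, Slc39a14 stood at 5.80, 7.98, 9.58 and 15.1 FPKM (0.61) and Slc30a5 at 21.1, 17.5, 26.7 and 17 FPKM (-0.62). Slc39a6 stood at 12, 11.4, 37.2 and 24.2 FPKM (-0.60), high in both longer cultures. The iron importer gene Slc11a2 stood at 10.4, 9.63, 8.66 and 12.2 FPKM (0.45), and the iron exporter gene Slc40a1 was listed at 0 in all 4 libraries.

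Sugar, lipid and anion carriers were few. Of 10 sugar and polyol carriers 8 lay above 0 at 5 days (median 0.26) and 8 at 3 weeks (median 0.33), with no test of the class. Of all genes 46.1% and 43.9% lay above 0 at these times. The summed level of the class was 104, 126, 118 and 159 FPKM. Slc50a1, of the SWEET family, stood at 47.6, 58.9, 59.1 and 72.3 FPKM (log2 ratio at 3 weeks 0.29), and Slc37a3 at 15.4, 16.6, 11.2 and 20.5 FPKM (0.82). Both fatty acid transport protein genes that were compared lay above 0, with Slc27a4 at 5.02, 7.38, 4.50 and 8.78 FPKM (0.83) beside Slc27a1. The 19 members of the SLC35 family were classed by family alone as carriers of nucleotide sugars and related compounds. Of these 0 were 2-fold apart at either time (median 0.03 at 5 days and 0.13 at 3 weeks). Over all genes 2.77% were higher and 0.82% lower at 5 days, and 7.97% and 8.19% at 3 weeks. Slc35a5 came nearest, at 2.41, 3.23, 2.05 and 5.02 FPKM (0.98), and Slc35a4 was lowest, at 36.8, 26.4, 38.9 and 24 FPKM (-0.68).

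The other 193 symbols lay under the minimum, and 62 of them were listed at 0 in all 4 libraries. The rest were faint: 10 reached 1 FPKM in some library and 1 of those reached 2, Slc4a4, a sodium and bicarbonate cotransporter gene at 0.0527, 0.518, 0.482 and 2.49 FPKM. Slc4a3, an anion exchanger gene, stood at 0.0451, 0.290, 0.159 and 1.49 FPKM, and Slc6a8, the creatine importer, at 0.572, 0.690, 0.246 and 1.89 FPKM. In these 3 genes KO 3-week was the highest of the 4 libraries; they were picked here for their level. The arginine importer gene Slc7a3 stood at 1.85, 1.13, 0.156 and 0.532 FPKM, highest in WT 5-day.

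**Figure D4:**
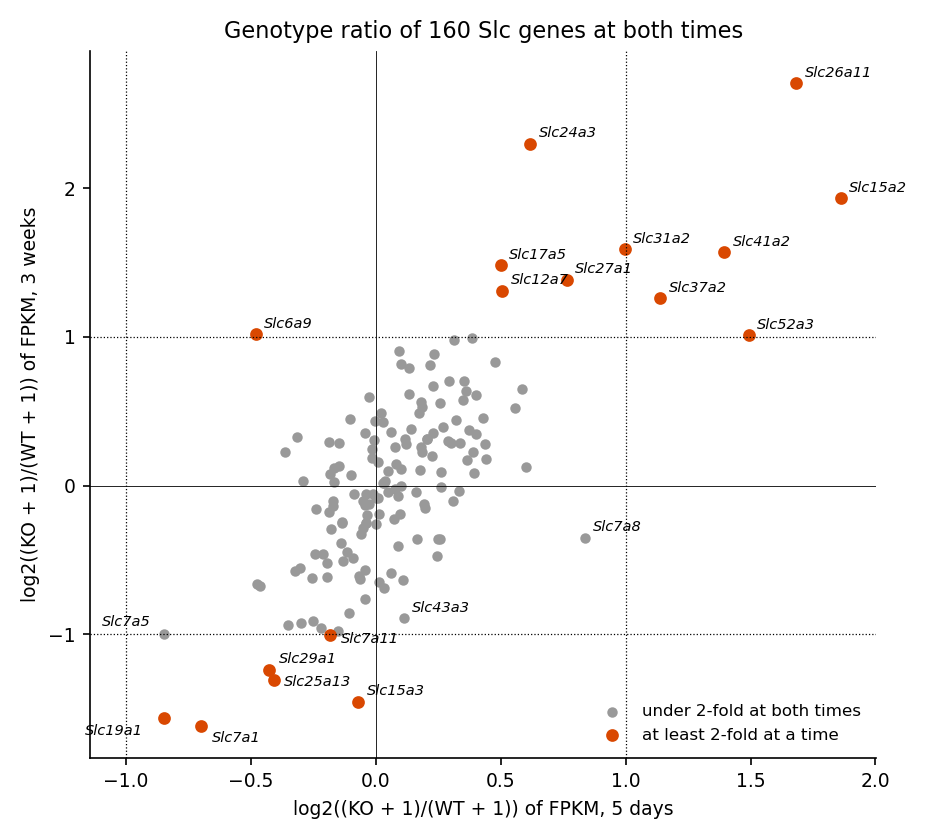
Log2((KO + 1)/(WT + 1)) of FPKM at 5 days (x axis) and at 3 weeks (y axis) for the 160 members, 1 point per gene, with the 2-fold limits dotted; coloured points are at least 2-fold apart at one time or both. Slc26a11, Slc15a2, Slc41a2, Slc37a2 and Slc52a3 lie beyond the limit on both axes. No member lies beyond it in opposite directions, where 0.237% of all compared genes do.

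The genotype ratios of the 2 times come from separate libraries. The 5 members higher at 5 days were also higher at 3 weeks, where 1.97% of all compared genes were higher at both times. Of the members 0 were lower at both times (0.401% of all genes) and 0 were apart in opposite directions (0.237%). The sign was the same at both times in 115 of 160 members (71.9%, against 75.9% of all genes). Across members the 2 ratios had a Pearson correlation of 0.732 and a Spearman correlation of 0.658 (0.433 and 0.673 over all genes), given as a description over genes, which are not independent. The spread widened with time: 143 of 160 members lay within 0.5 of 0 at 5 days and 98 of 160 at 3 weeks (87.6% and 57.5% of all genes).

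Taking the difference of the ratios, 3 members stood at least 2-fold further up at 3 weeks (Slc24a3 by 1.68, Slc6a9 by 1.5 and Slc26a11 by 1.03 on the log2 scale), where 4.53% of all genes did. Another 3 stood at least 2-fold further down (Slc15a3 at -1.38, Slc7a8 at -1.19 and Slc43a3 at -1.0), where 4.7% of all did. Slc43a3 was short of 2-fold further down under both other scalings. None of the 160 differed by 4-fold (0 up, 0 down, against 1.26% and 0.784% of all genes). The difference was not tested.

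**Figure D5:**
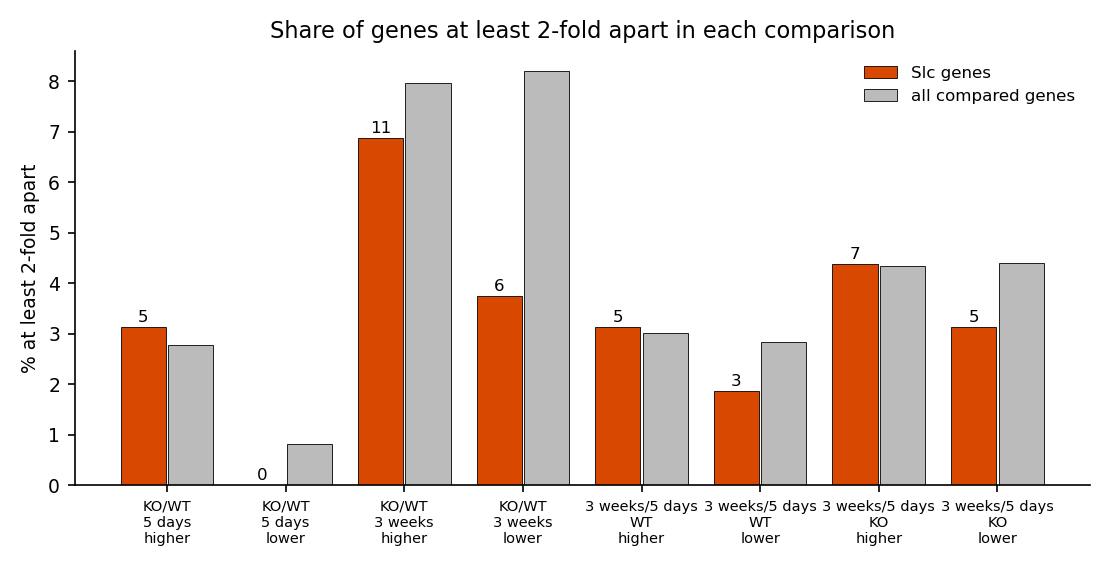
Percent of genes at least 2-fold higher or lower in each comparison, for the 160 members (with their number above the bar) and for all 10973 compared genes, on an axis that starts at 0. The members' share is below that of all genes for KO lower at 3 weeks (3.75% and 8.19%) and close to it for both higher directions of the culture comparisons.

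Between the cultures, a few members were high or low in the longer culture in both genotypes; these comparisons share libraries with the genotype comparisons, and the longer cultures also differ by their restimulation and by what was in the medium. In WT 5 members were higher in the longer culture (3.03% of all genes) and 3 lower (2.83%). In KO 7 were higher (4.35%) and 5 lower (4.39%). With a pseudocount of 0.1 FPKM the counts were 7 higher (4.18%) and 5 lower (4.35%) in WT, and 8 higher (5.38%) and 9 lower (6.3%) in KO. Slc17a6, known as the vesicular glutamate transporter VGLUT2 of neurons, stood at 0.244, 0.490, 3.94 and 4.28 FPKM. The zinc importer gene Slc39a6 was 3.10 times its 5-day level in WT (counting interval 2.88 to 3.34) and 2.11 times in KO (1.96 to 2.29).

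Slc37a2 was 3.33 times its 5-day level in WT and 3.21 times in KO. Lower in both longer cultures were Slc4a11, a borate transporter-like gene of the bicarbonate family, at 6.32, 5.52, 1.34 and 1.54 FPKM, and Slc17a9, the vesicular nucleotide transporter, at 25.3, 22.9, 11.4 and 8.54 FPKM. Past 2-fold in KO and not in WT were the higher Slc17a5, Slc20a1, Slc24a3 and Slc31a2 and the lower Slc16a10, Slc25a13 and Slc43a3, though the difference between the genotypes was not tested. Slc7a8, a neutral amino acid exchanger gene, stood at 0.574, 1.81, 2.65 and 1.87 FPKM, so WT 5-day was the low library.

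Genes that make, sense or respond to the transported nutrients were read from lists chosen with earlier results known. Of 33 compared genes of amino acid synthesis and the amino acid response, 0 were 2-fold apart at 5 days (all genes: 2.77% higher and 0.82% lower). At that time 5 of the 33 lay above 0, where 46.1% of all genes did, and the median was -0.29. At 3 weeks 8 were lower and 3 higher (median -0.50), where 8.19% and 7.97% of all genes were. Shmt1, an enzyme of serine and folate metabolism, stood at 11.7, 6.30, 20.8 and 4.07 FPKM, and Psat1, of serine synthesis, at 125, 72.7, 113 and 49.6 FPKM. Bcat1, which starts the breakdown of branched-chain amino acids, stood at 3.66, 1.76, 5.00 and 1.15 FPKM. The 3 higher were the stress response genes Ddit4, Atf5 and Nupr1. Atf3, also a stress response gene, was among the 8 lower, at 2.73, 1.96, 7.73 and 2.55 FPKM. Of 23 regulators of transporter genes 6 were higher and 2 lower at 3 weeks (median 0.05), where 7.97% and 8.19% of all genes were. The lower were Myc and Irf4. Among the higher were the Myc antagonist Mxd1, at 5.88, 8.79, 4.53 and 32.5 FPKM, and the Myc relative Mycn, at 0.580, 1.16, 0.0705 and 3.47 FPKM.

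Among 18 compared partners of solute carrier proteins 4 were higher and 1 lower at 3 weeks, where 7.97% and 8.19% of all genes were. Tfrc, the transferrin receptor, was the lower one, at 39.2, 20.4, 116 and 10.9 FPKM. The higher ones included Emb, the chaperone of lactate carriers, at 45.7, 44.7, 29.8 and 83.7 FPKM, and Nedd4, a ubiquitin ligase that marks transporters for removal, at 10.9, 22.1, 7.53 and 32.4 FPKM. The glucose and lactate carrier genes that the membership rule leaves out gave 0 higher and 1 lower at 3 weeks: Slc16a1 stood at 7.61, 3.81, 10.9 and 2.15 FPKM and Slc2a3 at 24.2, 17.1, 12.2 and 6.64 FPKM, whereas Slc2a1 stood at 30.7, 27, 36.7 and 38.5 FPKM.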

How the data were processed

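RNA of 4 libraries, 1 per group, was taken up in TRIzol and, per the labels' protocols, made into stranded mRNA libraries. The authors deposited 1 FPKM value per gene symbol. Cufflinks 2.0.2, TopHat 1.3.2, Bowtie 0.12.8 and the build mm10 are named, per the submitters' processing notes; annotation, read layout and use of strand are not stated there. A file held 23746 lines; values of 240 symbols on more than 1 line were summed (none a member), and 1 symbol with an error mark was left out. Genes with a mean of at least 1 FPKM were compared as log2((a + 1)/(b + 1)). No group has a replicate, so no contrast at a single time or in a single genotype was tested. An additive model of genotype and time has 1 residual degree of freedom and was not fitted.

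Depth was inferred from low values of single-transcript genes of GENCODE M21 (GRCm38), with 200 bases taken off the length. About 59.1% to 60.9% of values under 5.5 reads fell within 0.05 of a whole read, so depths of 20.7, 22.7, 23.6 and 21.6 M reads are approximate. Counting intervals are exact Clopper-Pearson 95% intervals on implied reads. Gene spans and overlaps are from GENCODE M21 and promoters from RefSeq (GRCm38.p6).

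The members, substrate classes and gene lists were chosen with earlier results of these data known. Named members with at least 5 FPKM in either library were the 15 highest and 15 lowest of each genotype contrast, the 6 highest and lowest of each other contrast, the 10 of highest mean and a set of well-known transporters; others are named as examples of a class. A few members that this rule picks are not reported here. Alternatives were other pseudocounts (0.1 and 5 FPKM), filters and scalings. Python 3.11.15, NumPy 2.4.6, pandas 2.3.3, SciPy 1.17.1 and matplotlib 3.10.9 were used, and the steps were tested on simulated data.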

Additional observations from a re-analysis of the deposited data

Results flagged for a closer look

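Of the 160 members, 45 had log2 ratios of opposite sign at the 2 times, and in 8 of these both counting intervals of the FPKM ratio left out 1 (Slc1a4, Slc35b4, Slc3a2, Slc43a3, Slc44a2, Slc52a2, Slc6a9 and Slc7a8). In 3 of the 8 the genotype contrasts also differed by at least 2-fold, and the difference was not tested, since each group is 1 library. The sign was the same at both times in 71.9% of members and 75.9% of all compared genes. How many of all genes meet the further conditions was not counted, so the 8 and the 3 have no share to stand beside.

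Slc6a9, the glycine transporter, was lower in KO at 5 days (ratio 0.612, counting interval 0.464 to 0.804) and higher at 3 weeks (5.57, 3.33 to 10.5), a difference of 1.5 on the log2 scale. Slc7a8, a neutral amino acid exchanger gene, was higher at 5 days (3.15, 2.26 to 4.49) and lower at 3 weeks (0.704, 0.573 to 0.865), a difference of -1.19. Slc43a3, the nucleobase transporter, was slightly higher at 5 days (1.08, 1.02 to 1.15) and lower at 3 weeks (0.527, 0.489 to 0.569), a difference of -1.0. Its log2 ratios at 5 days and 3 weeks were 0.139 and -0.786 with median-of-ratios and 0.148 and -0.755 with upper-quartile scaling. The difference was thus short of 2-fold under both.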

How the results depend on the processing

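No paired analysis was possible because each group has 1 library, and no replicate could be left out for the same reason. The counts by the 2-fold rule depended mostly on the pseudocount and the minimum. With a pseudocount of 0.1 FPKM the members higher in KO at 5 days were 8 in place of 5, those lower at 3 weeks 14 in place of 6, those lower in the longer culture 5 in place of 3 in WT and 9 in place of 5 in KO, and the difference of the genotype contrasts passed 4-fold in 1 member upward and 1 downward in place of 0 and 0. With a pseudocount of 5 FPKM the counts were 2 higher at 5 days, 3 higher (in place of 11) and 3 lower at 3 weeks, 1 higher (in place of 5) and 0 lower in the longer WT culture, and 2 higher (in place of 7) and 1 lower in the longer KO culture. With a minimum of 5 FPKM they were 3 higher at 5 days, 6 higher at 3 weeks, 3 higher and 1 lower in the longer WT culture, and 4 higher and 2 lower in the longer KO culture. The other pseudocounts and minimums change which low genes can pass by construction. The median difference of the genotype contrasts was -0.04 and turned to 0.031 with median-of-ratios and 0.050 with upper-quartile scaling. Of the 18 named ratios past 2-fold, 17 stayed so under each scaling (Slc7a11 at 3 weeks did not), 18 with a pseudocount of 0.1 FPKM and 8 with 5 FPKM. Members that overlap a gene on the opposite strand were also left out, a choice made after seeing the data. This cannot change the ratio of a member that stays, so the 15 named ratios past 2-fold that remained are no check. Depth limits the faint genes most, as the width of the interval of Slc15a2 at 3 weeks shows.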

Other observations

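Transporters outside the named family were read from lists chosen with earlier results known. Of 34 compared solute carriers listed under other symbols, 1 was at least 2-fold higher in KO at 5 days and 4 were higher and 2 lower at 3 weeks (all genes: 2.77% higher at 5 days, and 7.97% higher and 8.19% lower at 3 weeks), with a median of -0.01 at 3 weeks that turned above 0 under the other scalings. Spns2, which exports sphingosine-1-phosphate, stood at 0.897, 7.24, 0.653 and 16.3 FPKM in WT then KO at 5 days and WT then KO at 3 weeks, with both KO libraries above both WT libraries. Ctns, the lysosomal cystine exporter, stood at 4.99, 6.43, 3.47 and 10.8 FPKM. Lower were Mfsd2a, a carrier of lysophospholipids, at 1.3, 0.383, 4.90 and 0.450 FPKM, and Sfxn1, a mitochondrial serine carrier gene, at 31.1, 21.1, 36.5 and 15.3 FPKM, whereas Sfxn3 of the same family was higher, at 17.9, 26, 11.5 and 25.7 FPKM.

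Of 24 compared ABC transporter genes, which pump substrates with ATP, 1 was higher at 5 days and 3 were higher and 1 lower at 3 weeks (median 0.15). The same shares of all genes, 7.97% higher and 8.19% lower, stand beside these and the next counts at 3 weeks. At 5 days 2.77% of all genes were higher. The sterol exporter genes Abcg1 (4.66, 9.03, 0.939 and 15.1 FPKM) and Abca1 (0.547, 2.15, 0.134 and 3.98 FPKM) were each lowest in WT 3-week and highest in KO 3-week. Of 10 compared P-type pumps 2 were lower at 3 weeks and 0 higher (median -0.38). Of 32 compared genes of mTORC1 and amino acid sensing 3 were higher and 0 lower at 3 weeks (median 0.10), with Sesn3 at 15.0, 16.9, 9.13 and 30.4 FPKM.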
